A study of Danio rerio with 2 samples.

Results

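Transcripts of dynein genes were compared between testes and ovaries of wild-type adult zebrafish. The genes were taken by name, as every row of the deposited table whose symbol begins with dnah, dnai, dnal, dnaaf, odad, dync or dynl, which gave 56 of the 24539 genes in the table. They comprise 12 axonemal heavy chains, 11 axonemal intermediate and light chains, 10 assembly factors and 4 docking genes. The others are 6 subunits of cytoplasmic dynein-1, 3 subunits of dynein-2 and 10 light chains whose symbols begin with dynl. These 10 are of types that different dyneins share. They are called shared light chains here by name alone. Each organ was represented by 1 library made from the pooled organs of 3 adults, so neither organ has a replicate, the spread between animals is unknown and no test was made. The genotype of both pools is given as wild type; strain and exact age are not stated in the labels. Values are FPKM, fragments normalised to gene length and to the library's total, which can be compared between genes of a library. Between organs their ratio depends on how the libraries are scaled, which was varied below. The 56 rows carry 52 symbols. The symbols DNAI1, DNAL4, DYNLL2 and DYNLT1 are each carried by 2 rows, told apart here by their identifiers. The symbols of 39 of the 56 rows are in capitals, like human ones, and all are spelled as in the name table.

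Dyneins are motor complexes that walk along microtubules towards their minus ends. Axonemal dyneins form the outer and inner arms on the doublet microtubules of motile cilia and flagella, where they slide neighbouring doublets and so bend the sperm tail. They are put together in the cytoplasm with the help of dedicated assembly factors and are then anchored by a docking complex. Cytoplasmic dynein-1 carries cargo and positions nuclei and spindles in nearly all animal cells, including maturing oocytes. Dynein-2 drives the return leg of intraflagellar transport within the cilium. Small light chains of the LC8, roadblock and Tctex types serve in more than one of these complexes.

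The labels of the libraries were checked against marker genes. All 8 testis markers were higher in testis and all 8 ovary markers were higher in ovary, with summed values of 7521 and 29.2 FPKM in testis and ovary for the first list and 34.7 and 10013 FPKM for the second. Calls were made by size and not by a test: a gene counts as higher in 1 organ if its log2 ratio, computed on FPKM + 1, shows at least 2-fold and its higher value is at least 1 FPKM. Adding 1 shrinks the ratio of genes with low values. Among the 19053 genes over 1 FPKM in either library, 45.1% were called for testis, 16.6% for ovary and 38.3% lay within 2-fold. Over those genes the log2 ratio of testis to ovary had a median of 0.80 (quartiles -0.51 and 1.80), and every median below stands beside that value. Over the 5501 genes with at least 10 FPKM in both libraries the median was -0.10. Markers of motile ciliated cells, muscle, liver and blood were also higher in testis, and their part in the results below was not tested. With the median ratio of all genes set to 0, the ciliated marker RFX2 and the blood marker ptprc lay within 2-fold. The same held with a trimmed mean of log ratios, and the other markers kept their testis call under both. The 6 measured ciliated cell markers summed to 900 FPKM in testis and 36.7 FPKM in ovary, the 3 muscle markers to 114 and 3.10 FPKM, the 4 liver markers to 70.5 and 1.96 FPKM, and the 4 blood and immune markers to 272 and 19.8 FPKM. Of these 17 genes the muscle gene pvalb4 was at the lowest value of the table, 0.01 FPKM, in ovary. Most of the ciliated sum in testis came from TEKT1 and ENKUR, with 386 and 370 FPKM. Whether germ cells or other ciliated cells supplied these transcripts was not tested.

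The axonemal dynein system was higher in testis throughout, whereas 4 of the 6 cytoplasmic dynein-1 genes lay within 2-fold (38.3% of all genes). The dynein-1 count within 2-fold depended on scaling. It was 2 with the median ratio of all genes set to 0 and 0 with a trimmed mean of log ratios. All 37 axonemal motor, assembly and docking genes were higher in testis (100% against 45.1% of all genes), and their log2 ratios had a median of 5.04 (quartiles 3.71 and 6.12). The count was 35 of 37 with the median ratio of all genes set to 0 and with a trimmed mean of log ratios, as DNAH11 and DNAAF10 then lay within 2-fold. Of the 9 subunits named for cytoplasmic dyneins 5 were higher in testis (45.1% of all genes) and none was higher in ovary (16.6%). The other 4 lay within 2-fold (38.3%). This split moved with the scaling. Centring on the median ratio of all genes left 4 testis calls (25.1% of all genes) and gave 2 ovary calls (30.3%). The trimmed mean left 4 testis calls (27.1%) and gave 4 ovary calls (29.5%). The median of these 9 subunits, 1.13, was 2.88 log2 units below the median of 4.02 for the 23 axonemal motor subunits. The cytoplasmic median fell below the 2-fold limit under both of those rescalings, to 0.34 and 0.27. Each time it was the value of 1 gene, DYNC2I1 of dynein-2. Before rescaling that gene lay between the 4 genes within 2-fold, at -0.14 or less, and the next testis call, DYNC2I2 at 2.94. Centring takes 1 common amount from every log2 ratio, so it could not change the gap between the medians (2.88). The trimmed mean divides all testis values by 1 common factor before 1 FPKM is added. Genes with low testis values therefore shift less, and the gap was 2.89. The gap was 4.36 with a pseudocount of 0.1 FPKM and 2.03 with 5 FPKM. Over the whole family 49 of 56 genes were higher in testis (45.1% of all genes) and 1 was higher in ovary (16.6%). With the median ratio set to 0 these counts were 45 and 3, against 25.1% and 30.3% of all genes, and under the trimmed mean they were 44 and 5, against 27.1% and 29.5%. Leaving out the most abundant 100 genes of each library gave 48 and 1 (41.2% and 18.7% of all genes), and a 4-fold rule gave 43 and 0 (21.6% and 6.19%). In bulk tissue fewer cells of a type and less RNA per cell cannot be told apart, so these ratios describe the organ and not a cell.

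The make-up of dynein transcripts differed accordingly. The 56 genes summed to 4628 FPKM in testis, 0.823% of the library, and to 635 FPKM in ovary, 0.111% of the library. The 37 axonemal, assembly and docking genes supplied 3218 FPKM in testis and 87.7 FPKM in ovary, or 69.5% and 13.8% of the dynein sum. Shared light chains supplied 23.5% of the sum in testis and 64.8% in ovary, and dynein-1 subunits supplied 2.94% and 18.5%. The 6 dynein-1 subunits summed to 136 FPKM in testis and 117 FPKM in ovary. The log2 ratio of these sums, 0.21, lay below the median of 0.80 for all genes. It lay above the median of -0.10 for the 5501 genes with at least 10 FPKM in both libraries. The intermediate chain genes dync1i2b and DYNC1I1 are not among those 5501, as they had 0.47 and 0.22 FPKM in ovary. Without them the dynein-1 sums were 86.7 FPKM in testis and 117 FPKM in ovary. That log2 ratio, -0.42, lay below both medians.

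**Figure D1:**
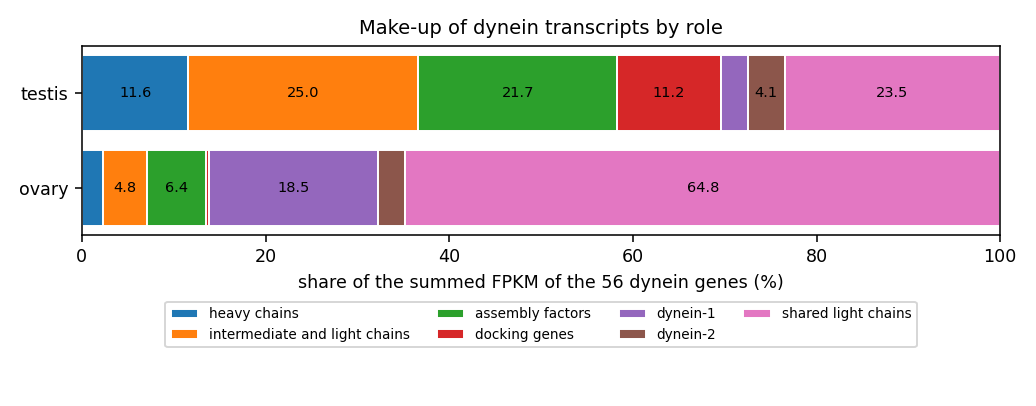
Share of the summed FPKM of the 56 dynein genes (horizontal axis, percent) that each role group supplied in the testis library (upper bar) and the ovary library (lower bar). Axonemal subunits, assembly factors and docking genes fill 69.5% of the testis bar and 13.8% of the ovary bar, and shared light chains fill 64.8% of the ovary bar.

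Heavy chains hold the motor domain and the microtubule-binding stalk of each dynein. All 12 axonemal heavy chain genes were higher in testis, with a median log2 ratio of 3.98 and levels from 2.10 to 127 FPKM in testis and from 0.06 to 6.36 FPKM in ovary. The highest in testis was dnah5l, related by name to the outer arm heavy chain gene DNAH5, at 127 FPKM in testis and 0.35 FPKM in ovary. DNAH5 itself had 38.3 FPKM in testis and 3.44 FPKM in ovary. The 2 genes therefore took opposite places in the organs, with dnah5l the higher one in testis and DNAH5 the higher one in ovary. The same held for the other outer arm pair. The gene dnah9, listed with the synonym lrdr (left-right dynein related), had 47.0 FPKM in testis and 0.36 FPKM in ovary, and dnah9l had 22.8 and 1.34 FPKM. DNAH11, named for an outer arm heavy chain, was the lowest heavy chain in both organs (2.10 FPKM in testis and 0.06 FPKM in ovary). Its log2 ratio of 1.55 was the smallest of the group and dropped to 0.49 with a pseudocount of 5 FPKM. That last place depended on the added 1 FPKM, as its plain ratio was 35. With a pseudocount of 0.1 FPKM its log2 ratio was 3.78, above only DNAH3 (3.30) and DNAH5 (3.44) of the heavy chains.

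Among the heavy chains of the inner arms, DNAH7 and DNAH6 were the highest in testis. DNAH7 had 108 FPKM in testis and 6.36 FPKM in ovary, the highest ovary value of any axonemal heavy chain. DNAH6 had 74.8 FPKM in testis and 0.21 FPKM in ovary, a plain ratio of 356. These neighbours in the testis order thus differed widely in ovary. DNAH1 had 34.8 and 0.30 FPKM, DNAH12 had 25.5 and 0.29 FPKM, and DNAH3 had 7.66 and 0.69 FPKM in testis and ovary. DNAH3 had the second smallest log2 ratio of the heavy chains, 2.36, and the smallest with a pseudocount of 0.1 FPKM (3.30). DNAH2 and DNAH10, whose products form the double-headed inner arm known as I1 or f, had 31.9 and 17.4 FPKM in testis and 1.15 and 0.14 FPKM in ovary. Summed by arm, the 5 outer arm genes gave 237 FPKM in testis and 5.55 FPKM in ovary, and the 7 inner arm genes gave 299.7 and 9.14 FPKM.

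Intermediate and light chains join the heavy chains to their track and to each other. All 11 genes were higher in testis, with a median log2 ratio of 5.08, and they reached higher levels than the heavy chains, up to 354 FPKM in testis. For the outer arm, the 2 DNAI1 genes had 256 FPKM in testis and 0.37 FPKM in ovary (ENSDARG00000100081) and 71.6 and 0.57 FPKM (ENSDARG00000038788). The first of these had the largest log2 ratio of all 56 genes, 7.55. DNAI2, the partner of DNAI1 in the outer arm, had 101 FPKM in testis and 0.30 FPKM in ovary, and its relative dnai2b had 10.9 and 0.13 FPKM. DNAI1 and DNAI2 thus each had 1 higher and 1 lower copy in testis, and all 4 copies were under 1 FPKM in ovary. DNAI3, DNAI4 and DNAI7, which belong to or are needed for inner arm dyneins, had 44.7, 9.99 and 53.3 FPKM in testis and 2.19, 0.16 and 0.44 FPKM in ovary.

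The light chains included the most abundant axonemal subunit of testis and the axonemal subunits with the highest ovary levels. DNALI1, a light chain of inner arm dyneins, was the most abundant of the 56 genes in testis, where its 354 FPKM ranked 170 among all genes of the table, and it had 9.48 FPKM in ovary. DNAL1, which binds the motor domain of an outer arm heavy chain, had 105 FPKM in testis and 0.53 FPKM in ovary. DNAL4, an outer arm light chain related to LC8, is carried by 2 identifiers. The gene ENSDARG00000088841 had 138 FPKM in testis and 13.4 FPKM in ovary, and ENSDARG00000031116 had 12.9 and 2.69 FPKM. Their log2 ratios were 3.27 and 1.91, the second being the smallest of the group. Where such copies are close in sequence, the division of reads between them is uncertain.

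Assembly factors are cytoplasmic proteins that help to fold the heavy chains and to combine the subunits before transport into the cilium. All 10 were higher in testis, with a median log2 ratio of 5.26, or 5.04 without dnaaf3l. The highest in testis were dnaaf2, also known as kintoun, at 229 FPKM in testis and 2.07 FPKM in ovary, DNAAF4 (also known as dyx1c1) at 181 and 6.94 FPKM, and dnaaf6 (pih1d3) at 139 and 0.77 FPKM. The largest log2 ratios were those of dnaaf19 (ccdc103), at 128 FPKM in testis and 0.53 FPKM in ovary, and of dnaaf6, with 6.40 and 6.31. With a pseudocount of 0.1 FPKM dnaaf3 (7.73) lay above dnaaf19 (7.67) and dnaaf6 (7.32), as did dnaaf3l. The leucine-rich repeat gene dnaaf1 (lrrc50) had 108 FPKM in testis and 0.69 FPKM in ovary, and DNAAF11 (lrrc6) had 44.4 and 0.97 FPKM. The related pair dnaaf3 and dnaaf3l had 33.8 and 44.3 FPKM in testis. In ovary dnaaf3 was at 0.06 FPKM and dnaaf3l at 0.01 FPKM, the lowest value of the table, against which no fold is given. The smallest ratios belonged to DNAAF10 and dnaaf9. DNAAF10 (wdr92), which works with the general chaperone machinery, had 70.8 FPKM in testis and 27.8 FPKM in ovary, a log2 ratio of 1.32 that dropped to 0.52 with the median ratio of all genes set to 0. It was the assembly factor, and the axonemal-side gene, with the highest ovary level. The gene dnaaf9 had 26.2 and 1.08 FPKM.

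The 4 docking genes lay close together. Their products tether the outer arms to the doublet microtubules at regular spacing. The gene odad3 had 182 FPKM in testis and 0.26 FPKM in ovary, ODAD4 had 124 and 0.68 FPKM, ODAD2 had 118 and 0.36 FPKM, and odad1 had 95.6 and 0.51 FPKM. Their testis levels spanned less than 2-fold and all were under 1 FPKM in ovary, with log2 ratios from 6.0 to 7.18. As a sum the group had 519 FPKM in testis and 1.81 FPKM in ovary, a plain ratio of 287. The ratio of sums was 36.5 for heavy chains, 38.3 for intermediate and light chains and 24.6 for assembly factors. Single genes weigh in these sums, as DNAAF10 gave 27.8 of the 40.9 FPKM of assembly factors in ovary. The 4 outer arm intermediate chain genes alone gave 439 and 1.37 FPKM, a plain ratio of 320. Median log2 ratios were 6.34 for docking genes, 5.26 for assembly factors, 5.08 for intermediate and light chains and 3.98 for heavy chains. Because ovary values have 2 decimals, the plain ratios of genes with an ovary value near 0.1 FPKM or less carry a rounding error of several percent or more.

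Ovary levels of the axonemal-side genes varied. Of the 37 genes, 25 were under 1 FPKM in ovary and at least 1 FPKM in testis, against 33.1% of all genes that reached 1 FPKM in either organ. The other 12 were between 1.08 and 27.8 FPKM in ovary, and 2 of them, DNAAF10 and DNAL4 (ENSDARG00000088841), passed 10 FPKM. In testis 34 of the 37 passed 10 FPKM, the exceptions being DNAH11, DNAH3 and DNAI4, and 15 passed 100 FPKM.

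**Figure D2:**
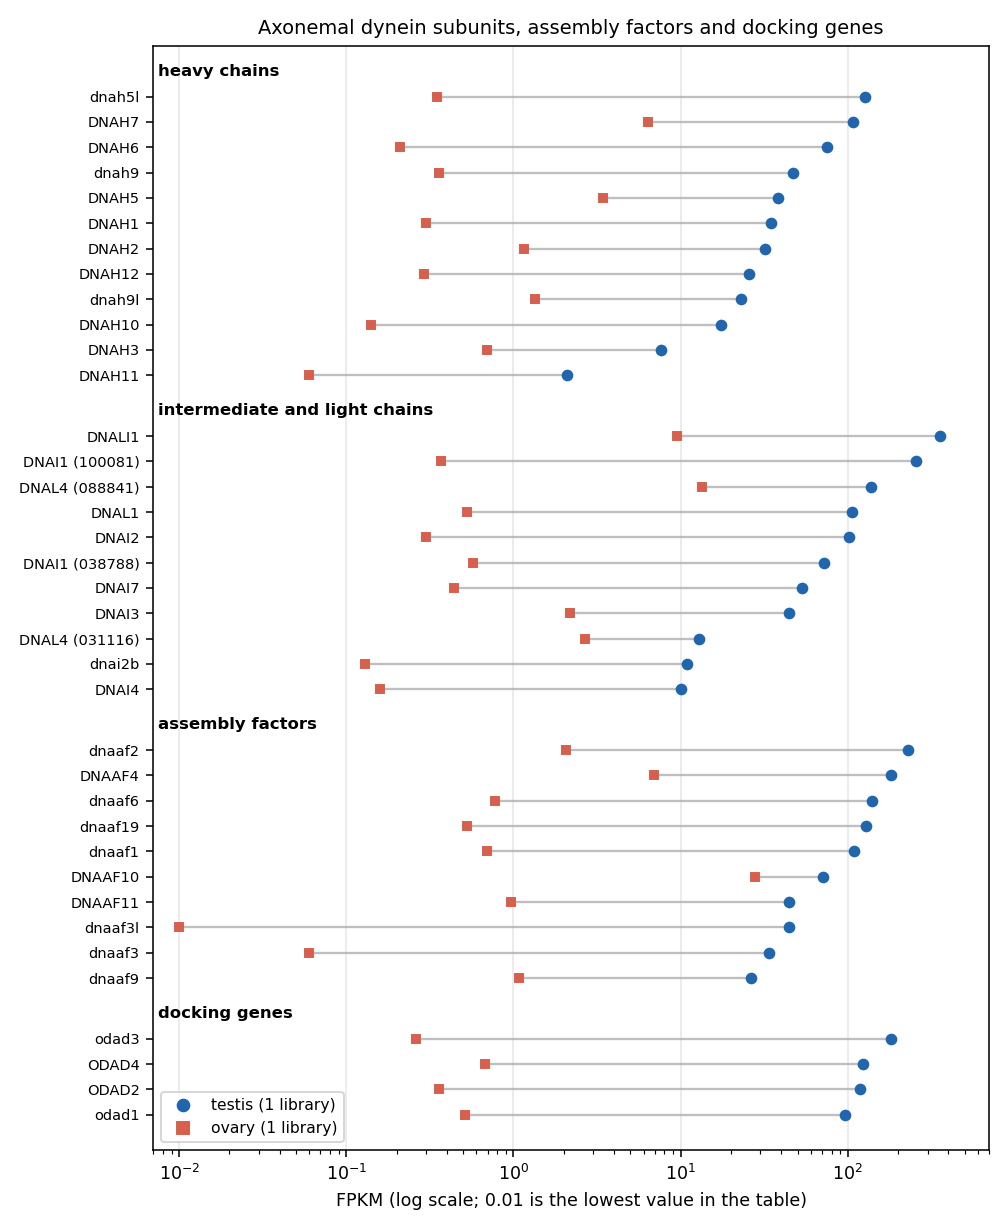
FPKM (horizontal log axis) of the 37 axonemal dynein subunits, assembly factors and docking genes in the testis library (circles) and the ovary library (squares), 1 library per organ, with grey lines joining the values of a gene and the last 6 digits of the identifier where a symbol is shared. Every circle lies to the right of its square, and the shortest line belongs to DNAAF10.

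Cytoplasmic dynein-1 was split between 4 genes within 2-fold (38.3% of all genes) and 2 intermediate chain genes that were higher in testis (45.1%). DYNC1H1, its heavy chain gene, had 22.6 FPKM in testis and 38.2 FPKM in ovary. The light intermediate chain genes dync1li1 and DYNC1LI2, which bind cargo adaptors, had 15.6 and 22.6 FPKM in testis and 24.2 and 25.5 FPKM in ovary. The intermediate chain gene dync1i2a had 26.0 FPKM in testis and 28.7 FPKM in ovary. These 4 genes had log2 ratios from -0.73 to -0.14, all within 2-fold and all slightly lower in testis. Whether they count as equal depended on the scaling. With the median ratio of all genes set to 0, DYNC1H1 (-1.53) and dync1li1 (-1.40) were called higher in ovary, against 30.3% of all genes. With the trimmed mean all 4 were, against 29.5% of all genes. Their log2 ratios were then -1.61 for DYNC1H1, -1.45 for dync1li1, -1.02 for dync1i2a and -1.04 for DYNC1LI2.

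The other intermediate chain genes of dynein-1 had ratios in the range of the axonemal genes. The gene dync1i2b had 33.1 FPKM in testis and 0.47 FPKM in ovary, a log2 ratio of 4.53. DYNC1I1, whose mammalian form is best known from neurons, had 16.4 and 0.22 FPKM, a log2 ratio of 3.83. Both were under 1 FPKM in ovary, and both stayed higher in testis under all 9 alternatives. The 3 intermediate chain genes summed to 75.4 FPKM in testis and 29.4 FPKM in ovary. The ovary sum came almost wholly from dync1i2a, with 97.7% of it, while in testis dync1i2b supplied 43.9%, dync1i2a 34.4% and DYNC1I1 21.7%. The light intermediate chains summed to 38.2 FPKM in testis and 49.7 FPKM in ovary and divided similarly in each, with DYNC1LI2 at 59.1% and 51.3%.

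The 3 dynein-2 subunits were all higher in testis (45.1% of all genes), by unequal amounts. No heavy chain of dynein-2 was among the rows taken by name. DYNC2LI1, the light intermediate chain that stabilises the motor, had 102 FPKM in testis and 2.62 FPKM in ovary, a log2 ratio of 4.83. The intermediate chain gene DYNC2I2 (wdr34) had 66.3 and 7.74 FPKM, a log2 ratio of 2.94. The intermediate chain gene DYNC2I1 (wdr60) had 19.4 and 8.30 FPKM. Its log2 ratio of 1.13 was just past the 2-fold limit and was under it after each of 3 rescalings (0.98 after leaving out the most abundant 100 genes of each library, 0.34 with the median ratio set to 0 and 0.27 under the trimmed mean) and with a pseudocount of 5 FPKM (0.88). In ovary the order of the 3 was turned round, with DYNC2LI1 the lowest.

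The shared light chains held both the most abundant dynein genes of the ovary and some of the most testis-biased genes of the family. Of 10 genes, 7 were higher in testis (45.1% of all genes), 1 was higher in ovary (16.6%) and 2 lay within 2-fold (38.3%). The median log2 ratio of the group was 2.17. Under the trimmed mean 5 genes kept a testis call (27.1% of all genes), 1 kept an ovary call (29.5%) and 4 lay within 2-fold. With the median ratio of all genes set to 0, 6 genes kept a testis call (25.1%), 1 an ovary call (30.3%) and 3 lay within 2-fold. LC8 chains are small dimers that bind many partners besides dynein. Among them dynll1 had 194 FPKM in testis and 81.1 FPKM in ovary, and the 2 DYNLL2 genes had 180 and 139 FPKM (ENSDARG00000005172) and 36.9 and 94.3 FPKM (ENSDARG00000069790). The last of these was the only one of the 56 genes called higher in ovary, with a log2 ratio of -1.33, against 16.6% of all genes. It was also called so under all 3 rescalings, but not by a 4-fold rule. The log2 ratio of dynll1, 1.25, dropped to 0.45 after centring on the median of all genes and 0.33 under the trimmed mean. LC8 proteins are very alike, so a wrong division of reads among these genes cannot be told apart from a difference in level. The 3 genes summed to 410 FPKM in testis and 314 FPKM in ovary. The log2 ratio of the sums, 0.38, lay below the median of 0.80 for all genes. It lay above the median of -0.10 for the 5501 genes with at least 10 FPKM in both libraries.

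The roadblock chains, which pair along the intermediate chains, included relatives with very different ratios. DYNLRB1 had 225 FPKM in testis and 61.7 FPKM in ovary, a log2 ratio of 1.85 that dropped to 0.93 with the trimmed mean. DYNLRB2 had 173 FPKM in testis and 0.45 FPKM in ovary, a log2 ratio of 6.90 and a plain ratio of 384. The 2 genes were thus close in testis and far apart in ovary, where DYNLRB1 held 99.3% of their sum.

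Among the Tctex chains the leading gene differed between the organs. DYNLT5 had 139 FPKM in testis and 0.49 FPKM in ovary, with a log2 ratio of 6.55. DYNLT3 had 39.8 and 27.4 FPKM and lay within 2-fold. DYNLT2B (tctex1d2), a light chain of dynein-2 that was counted by its name with the shared light chains, had 43.5 and 3.94 FPKM. DYNLT5 therefore supplied 50.1% of the Tctex sum of 277 FPKM in testis, and DYNLT3 supplied 78.2% of the sum of 35.1 FPKM in ovary. The 2 DYNLT1 genes had 36.5 FPKM in testis and 0.70 FPKM in ovary (ENSDARG00000094627) and 18.7 and 2.53 FPKM (ENSDARG00000045909).

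**Figure D3:**
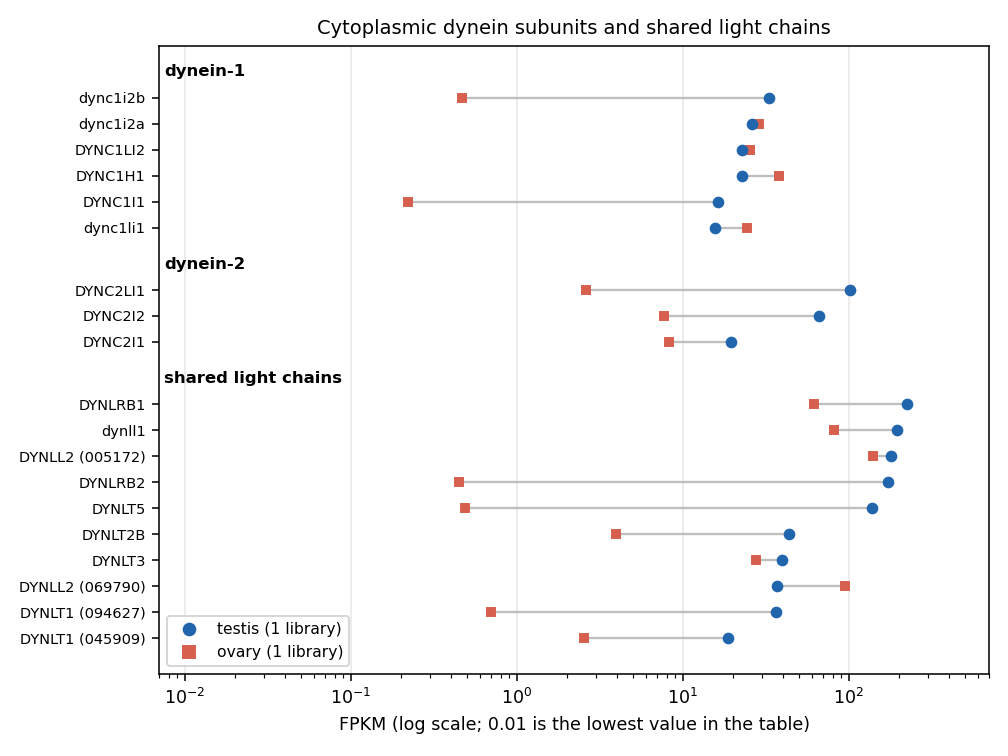
FPKM (horizontal log axis) of the 19 cytoplasmic dynein subunits and shared light chains in the testis library (circles) and the ovary library (squares), 1 library per organ, labelled as in the plot of axonemal genes. DYNC1H1, dync1i2a, dync1li1, DYNC1LI2 and 1 DYNLL2 gene have their square to the right of the circle, while dync1i2b, DYNC1I1, DYNLRB2, DYNLT5 and 1 DYNLT1 gene have an ovary value under 1 FPKM.

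**Figure D4:**
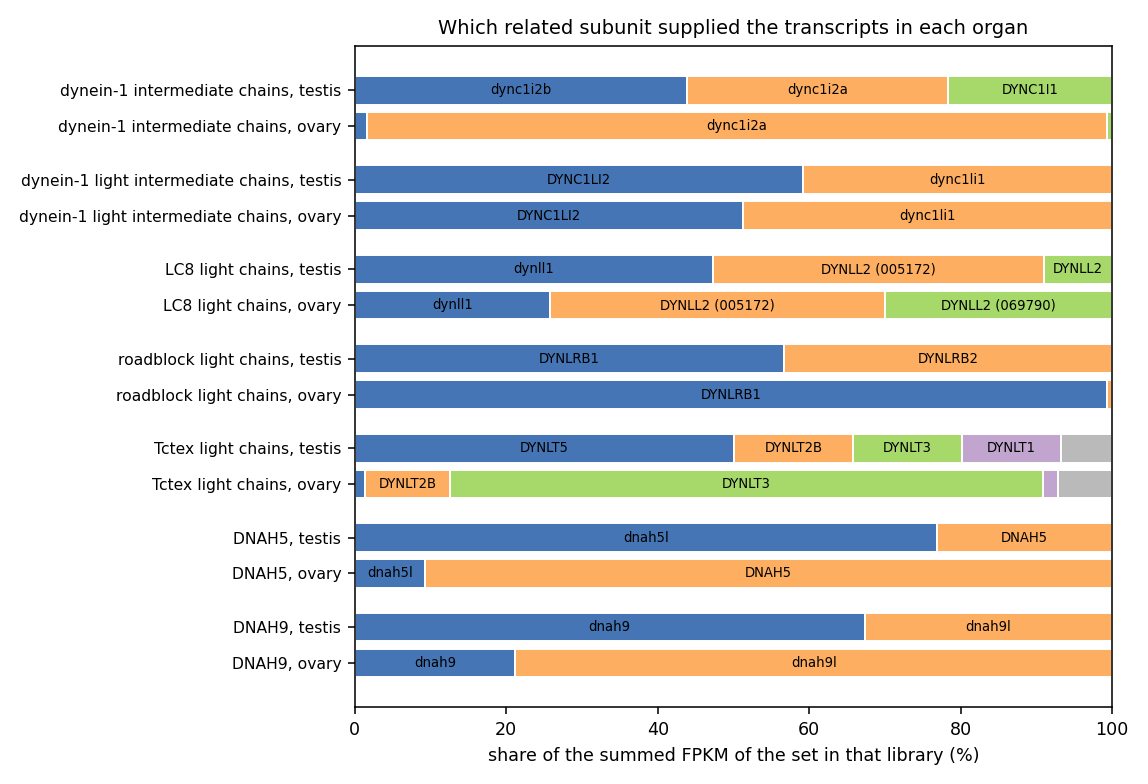
Share of the summed FPKM (horizontal axis, percent) that each related subunit gene supplied within its set, with the testis library above the ovary library for each set, 1 library per organ; the grey part of the Tctex bars is the DYNLT1 gene ENSDARG00000045909. A single gene supplied 97.7% of dynein-1 intermediate chain and 99.3% of roadblock chain transcripts in ovary, whereas no gene supplied more than 56.6% of either set in testis.

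Dynein subunits, docking and assembly genes that go by other symbols were examined next. Of 17 measured genes of this list, 16 were higher in testis (45.1% of all genes), none was higher in ovary (16.6%) and 1 lay within 2-fold. Their median log2 ratio was 3.98. DAW1, which helps to bring outer arms into the cilium, had 236 FPKM in testis and 0.45 FPKM in ovary. RUVBL1 and RUVBL2, general ATPases of chaperone complexes that also serve dynein assembly, had 194 and 239 FPKM in testis and 109 and 91.8 FPKM in ovary. RUVBL1 was the gene within 2-fold. With the median ratio of all genes set to 0, as with the trimmed mean, 12 of the 17 were higher in testis, against 25.1% and 27.1% of all genes.

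Genes for dynactin mostly lay within 2-fold. Dynactin is the large cofactor that makes dynein-1 processive, and of 11 measured dynactin genes 9 lay within 2-fold, against 38.3% of all genes. Their median log2 ratio was 0.02. The capping protein genes capza1a and capza1b had 77.9 and 45.2 FPKM in testis and 48.4 and 51.0 FPKM in ovary, and ACTR10 had 62.4 FPKM in testis and 36.7 FPKM in ovary. The exceptions, both on the testis side and picked out with their values known, were DCTN3 (61.7 and 20.98 FPKM) and a low copy of DCTN1 (1.66 and 0.14 FPKM). Neither was called under the median or the trimmed mean rescaling, which gave 0 dynactin genes higher in testis, against 25.1% and 27.1% of all genes. Those rescalings called 2 and 3 dynactin genes higher in ovary, a share no larger than the 30.3% and 29.5% of all genes.

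Adaptors and regulators of cytoplasmic dynein had calls in both organs, in shares not far from those of all genes. Of 25 measured genes, 8 were called for testis (32%, against 45.1% of all genes), 5 for ovary (20%, against 16.6%), and 12 lay within 2-fold. Their median log2 ratio was 0.61. With the median ratio set to 0 the split was 5 higher in testis and 7 higher in ovary, and with the trimmed mean it was 6 and 7. The matching shares of all genes were 25.1% and 30.3%, and 27.1% and 29.5%. Of the 8 called for testis 5 were so called under all 3 rescalings too, as were all 5 called for ovary. Those on the testis side, picked out with their values known, included SPDL1, whose product (spindly) recruits dynein to kinetochores, with 109 FPKM in testis and 23.6 FPKM in ovary. MAPK8IP3, which encodes the cargo adaptor JIP3, had 12.9 FPKM in testis and 0.40 FPKM in ovary. BICD2, of the Bicaudal-D adaptors, had a copy at 4.73 and 1.06 FPKM that was called for testis and lay within 2-fold under the median and trimmed mean rescalings. The 5 on the ovary side also encode adaptors. The ninein-like gene ninl had 12.7 FPKM in testis and 76.3 FPKM in ovary, and NIN (ninein) had 7.56 and 29.1 FPKM. The gene bicdl2, of the Bicaudal-D-like family, had 2.59 FPKM in testis and 26.7 FPKM in ovary. HOOK2 had 12.3 FPKM in testis and 30.2 FPKM in ovary, and HOOK1 had 4.52 and 10.9 FPKM.

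The general regulator LIS1 is encoded by PAFAH1B1, which had 116 FPKM in testis and 102 FPKM in ovary. Its relative by name pafah1b1b, picked out with its values known, had 78.5 and 63.0 FPKM. NDEL1, a partner of LIS1, had copies with different ratios. The gene ENSDARG00000010953 had 127 FPKM in testis and 1.45 FPKM in ovary, a log2 ratio of 5.71. The other NDEL1 gene, ENSDARG00000104225, picked out with its values known, had 23.4 and 38.4 FPKM. Its log2 ratio of -0.69 lay within 2-fold. It was called higher in ovary with the median ratio set to 0 (-1.49, against 30.3% of all genes) and with the trimmed mean (-1.56, against 29.5%).

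**Figure D5:**
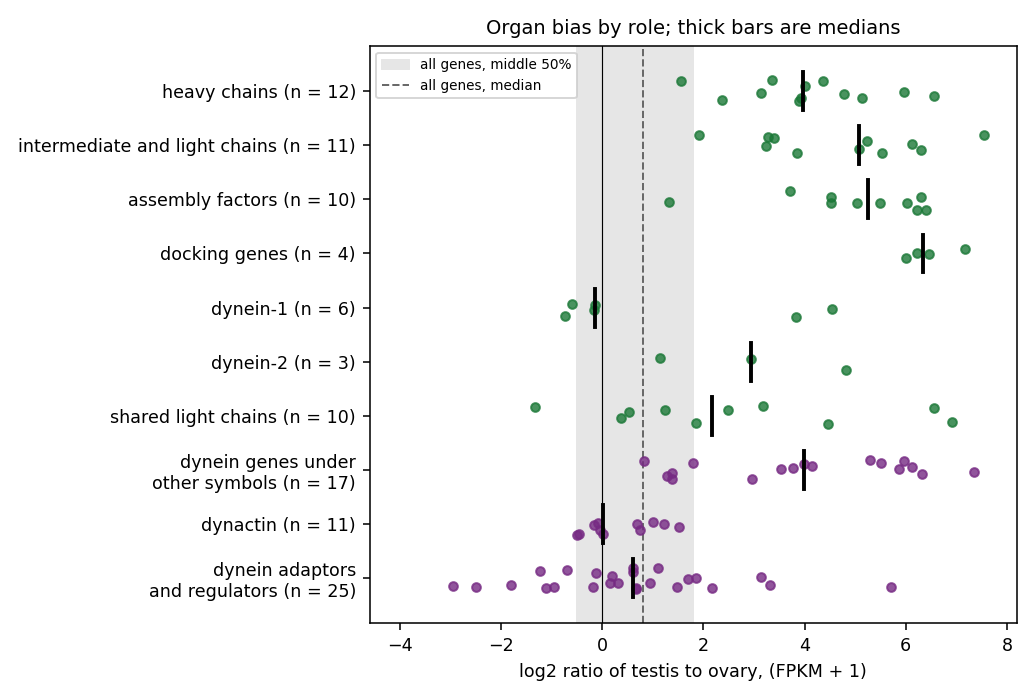
Log2 ratio of testis to ovary, computed on FPKM + 1 (horizontal axis), for each gene of the 7 role groups (green points) and of 3 lists of related genes (purple points), with group medians as thick bars. The grey band spans the quartiles of all 19053 genes over 1 FPKM, -0.51 to 1.80, and the dashed line their median of 0.80; docking genes have the largest group median, and dynein-1 and dynactin have medians near 0.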

How the data were processed

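Per the labels' protocols, frozen testes and ovaries were extracted with Trizol and sequenced on the BGISEQ-500 platform. HISAT, Bowtie2, RSEM and the build GRCz10 are named in the submitters' processing notes, with no versions, annotation or strand handling. The authors deposited FPKM with 2 decimals, 1 column per organ, per the file headers. The lowest value, 0.01, was read as a floor in place of 0 (testis 430 genes, ovary 3540). Read counts were not used, so absolute depth is unknown. Steps among the low values of 1205 genes put 1 read in testis at 1.09 times its FPKM in ovary, if the steps are read as 1, 2 and 3 reads.

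Symbols came from a name table (21881 of 24539 identifiers matched) and, for list members, from single synonyms in a RefSeq table of GRCz12tu, which is not the build of the files. The log2 ratio is log2((FPKM + 1) in testis/(FPKM + 1) in ovary); a call needed 2-fold and 1 FPKM in the higher library. Members and lists were chosen with earlier results of these data known. Named are each role group's 3 highest genes per library, its 2 largest and 2 smallest ratios, all heavy chains and cytoplasmic subunits, and all genes within 2-fold or higher in ovary; of the lists, the 2 highest per library and those higher in ovary. Added for their roles, with values known, were the second DNAI1 gene, dnai2b, DNAI3, DNAI7, DNAL1, dnaaf1, dnaaf3, dnaaf3l, DNAAF11, DYNLT2B and the DYNLT1 genes. The scripts (Python 3.11.15, pandas 2.3.3) were tested on simulated data. Planned descriptions of promoter motifs and protein likeness were not run; no sequences were used here.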

Additional observations from a re-analysis of the deposited data

How the results depend on the processing

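No paired analysis was possible because each organ has 1 library. The 9 alternatives changed pseudocount, minimum, scaling, fold and the rows admitted; 45 of the 56 genes kept their call wherever they gave one, and no called gene changed direction. With a pseudocount of 0.1 FPKM the medians of axonemal motor subunits and assembly factors were 5.58 and 6.91 and the gap of axonemal over cytoplasmic medians was 4.36; with 5 FPKM they were 2.91, 3.63 and 2.03, and the cytoplasmic median was 0.88. Setting the median ratio of all genes to 0, a shift of 0.80, gave 3.22 (axonemal motors), 4.46 (assembly factors), 1.37 (shared light chains) and 0.34 (cytoplasmic), with 3 dynein genes higher in ovary. The trimmed mean, a shift of 0.93, gave 3.16, 4.37, 1.27 and 0.27, with 5 genes higher in ovary. Leaving out the most abundant 100 genes of each library put the cytoplasmic median at 0.98. No gene was higher in ovary by the 4-fold rule, which fewer genes can pass, or among symbols carried by 1 identifier, which leave out DYNLL2. The gap was 4.17 with dynein-1 alone as the cytoplasmic set, 2.16 with shared light chains added to it, and 3.90 with assembly and docking genes added to the axonemal set. Genes higher in testis numbered 43 to 49 of 56. Other causes of these moves were not tested. With no counts, the precision of ovary values under 1 FPKM is unknown.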

Other observations

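The genes that flank dynein genes in the genome were examined too. This was done after the values were seen, in the gene order of the RefSeq table of GRCz12tu, where 44 of the 52 symbols were found on 21 chromosomes. A flanking gene outside the family was counted only if measured under a symbol that 1 identifier carries. Others were passed over. Among the 44 dynein genes found, none was the nearest counted gene of another. Members that share a symbol are not among the 44. The 30 axonemal, assembly and docking genes found there had 60 nearest counted flanking genes, of which 53 reached 1 FPKM. Of these, 22 (41.5%) were called for testis and 5 (9.43%) for ovary, and the median log2 ratio was 0.69, against 45.1%, 16.6% and 0.80 for all genes.

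The 5 flanking genes called for ovary were 9.43% of the 53, a smaller share than the 16.6% of all genes. Examples of them were picked out with their values known. Beside odad4, cnp had 60.98 FPKM in testis and 263 FPKM in ovary. Beside dnaaf2, lrr1 had 10.2 and 29.4 FPKM. On the testis side the largest ratio among flanking genes of all 44 was that of cfap57, named for cilia and flagella. It had 71.3 FPKM in testis and 0.13 FPKM in ovary. It lay 4 genes from dynlt5, a shared light chain gene outside the 30.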
